A study of Drosophila melanogaster and Drosophila biarmipes with 20 samples.

Results

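The 9 genes srp, ush, lz, Hml, Pxn, NimC1, eater, crq and Sr-CI mark hemocytes, the blood cells of Drosophila, and their open chromatin was followed in developing wings of male Drosophila melanogaster. Regions of open chromatin came from the merged union of the 10 single-library lists. A region was assigned to one of the genes if it overlapped its span in build dm6, or lay within 10 kb of its nearer end with no closer protein-coding gene. This gave 164 of the 98646 regions of the union. Of the 13030 protein-coding genes with at least 1 such region, 9 were these. ATAC-seq, in which a transposase inserts adapters into accessible DNA, was run at 5 stages given as percent of the pupal period (0%, 48%, 60%, 69%, then 78%), with 2 libraries a stage that the labels call biological replicates. The flies were kept at 20 °C. No genotype beyond the species and no treatment is given in the labels, and all groups were male. Each library pooled tissue. Wing imaginal discs, 24 of them, were used at 0%, 14 to 17 wings of 11 or more animals at the stage called 48% in the titles and 47% in the protocol, and 24 wings later. Only wings older than 60% were cut before disruption. Every label names the tissue as pupal wings, the discs included. The D. biarmipes libraries of the series were not analysed here.

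Hemocytes arise from the GATA factor Serpent (srp), which is needed for the whole lineage. U-shaped (ush), a FOG-family zinc finger protein, binds GATA factors and modifies their action, and the RUNX factor Lozenge (lz) directs crystal cells, which carry the enzymes of melanisation. Plasmatocytes, the macrophages of the fly, express Hemolectin (Hml), a clotting protein, and Peroxidasin (Pxn), which cross-links basement membrane, and take up microbes and dead cells through receptors such as NimC1, Eater, Croquemort (crq) and Sr-CI. Several of these genes also act outside blood cells. ush, for example, patterns bristles on the back of the fly, which forms from the same disc as the wing, and lz acts in the eye. Whole tissue was used. Fewer hemocytes, less open chromatin per hemocyte and a difference in other cells of the disc or wing cannot be told apart.

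The lists rested on 56282342 to 119278540 tags per library and held 41485 to 80705 regions, which together covered 18.0 to 24.4 Mb per library. The fragment length in the headers was 138 to 208 bp for replicate 1 at 0%, both libraries at 48% and replicate 2 at 60%, and 50 to 58 bp for the 6 others. The file headers place replicate 1 of each stage and both 48% libraries in one dated folder and the other 4 in a later one. The lists give coordinates and no signal, so the graded value per gene is its covered length, the bases of its regions that a library listed. A region that is not listed fell below the caller's threshold, which does not show that it was closed in every cell. With 2 libraries against 2, an exact two-sided test at a single region cannot go below p = 0.333, so single regions carry no p. Covered lengths were tested across all genes with limma.

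For ush, Pxn, NimC1, eater and Sr-CI, 5 of 9 genes, both 0% libraries lay above all 8 pupal libraries. Over all 13030 genes this held for 18.8%. No member had both 0% libraries below all pupal ones, which 18.5% of all genes had. Over the 5 stages, 6 of 9 members differed beyond the spread between replicates (limma F test, Benjamini-Hochberg over all genes), and so did 54.3% of all genes, so the members' count is near the background. The 6 were eater (adjusted p = 9.39e-05), lz (0.000825), Sr-CI (0.0023), NimC1 (0.0158), ush (0.0277) and crq (0.0384). For eater all 8 pupal libraries were at 0 bp. Those stages added no spread, so its small p rests partly on this floor. Hml (0.106), Pxn (0.145) and srp (0.399) did not pass. lz and Sr-CI passed with each of the 10 libraries left out in turn, and NimC1 in 8 of the 10 fits. eater also passed in all 10, but with its 8 pupal libraries at 0 bp these fits are no check on it. ush passed in 2 of the 10, with either 78% library left out (adjusted p = 0.0031 without replicate 1 and 0.0023 without replicate 2), and otherwise had an adjusted p of 0.065 to 0.147. crq passed in 2 of the 10, with either 48% library left out (0.00317 without replicate 1 and 0.00539 without replicate 2), and otherwise had 0.0781 to 0.161. Without replicate 2 at 0% the count was 3.

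**Figure D1:**
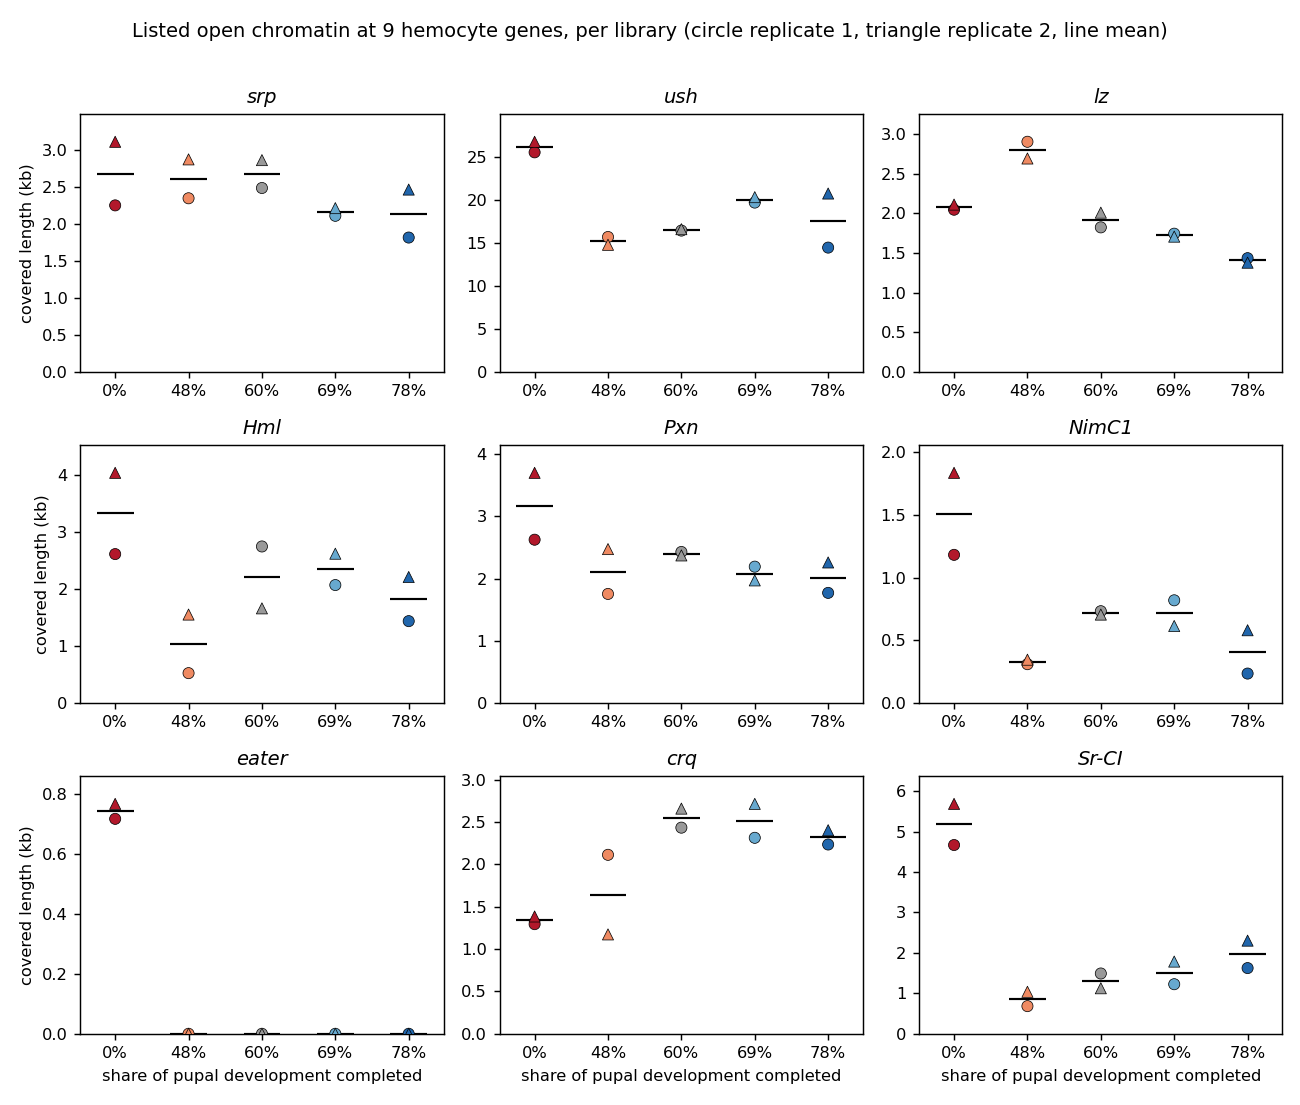
Covered length in kb (vertical axes, from 0, scaled per gene) of the 9 hemocyte genes at the 5 stages (horizontal axes). Circles are replicate 1, triangles replicate 2 and lines stage means. eater is at 0 bp in all 8 pupal libraries, lz peaks at 48% and crq is highest from 60% on.

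The comparison of the 48% wing with the 0% disc asks what differed between the mid-pupal wing and the disc. Covered length was lower at 48% for eater, Sr-CI, NimC1, Hml and ush, 5 of 9 members (22.9% of all genes), and higher for lz, 1 of 9 (15.4% of all genes). It did not pass for Pxn, srp and crq. On the log2(covered length + 100 bp) scale, used for every log2 difference here, the median difference of the members, 48% minus 0%, was -0.78, and that of all genes -0.04. With covered length taken per Mb of sequence that each library listed, the median of all genes was 0.17 and the split of calls over all genes was 3544 higher and 2408 lower, against 2008 higher and 2986 lower unscaled. The members' counts stayed at 1 higher and 5 lower. Leaving out replicate 2 at 0%, the most deeply sequenced library, left 2 members lower, eater and Sr-CI. Leaving out replicate 2 at 48% gave 2 members higher, with crq added. In the first 20000 entries of each list, which are wider (medians of 437 to 602 bp, against 128 to 163 bp in the rest), 2 members were lower, ush and Sr-CI, and 0 higher. There lz (0.06, adjusted p = 0.86, limma), NimC1 (-2.12, 0.178) and Hml (-1.17, 0.28) did not pass.

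By single regions, 36 of the 129 member regions that any of the 4 libraries held were closed at 48%, meaning that neither 48% library and both 0% libraries listed them. That is 27.9%, against 19.8% of all regions. Opened regions, listed by both 48% libraries and neither 0% library, numbered 11 of 129, or 8.53%, against 8.84% of all regions. With replicate 1 of each stage alone, both from the earlier folder, 13 of 101 opened (12.9%, against 20.6% of all regions) and 51 closed (50.5%, against 37.3%).

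Among the receptor genes, eater was listed in the disc alone. Eater is a plasmatocyte receptor with many EGF-like repeats that binds bacteria. The gene (Dmel_CG6124) spans chromosome 3R from 27095867 to 27099679 in dm6 and held 2 regions, one inside it from 27098375 to 27098971 and one over its upper end from 27099272 to 27099812. Here upper and lower name the gene's ends by coordinate, since the gene table used gives no strand. Its covered length was 717 and 767 bp in the 0% libraries, and none of the 8 pupal libraries listed any of it. Both regions were thus among those that both 0% libraries and no pupal library held, which 5.84% of all regions were. The limma test of 48% against 0% gave an adjusted p of 6.36e-05, and no fold is given against a group at 0. That p rests partly on the floor, since the pupal stages added no spread. In the lists' first 20000 entries eater was absent from every library.

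Sr-CI, a scavenger receptor for bacteria, had most of its regions outside the gene. The gene (Dmel_CG4099) spans 2L from 4121702 to 4124153, and 16 of its 20 regions lay above it, up to 8701 bp away. The first region, from 4121512 to 4122784, was listed in all 10 libraries and also overlaps the gene of another scavenger receptor of the same class, Sr-CIII. Covered length was 4668 and 5686 bp at 0%, 684 and 1039 bp at 48%, 1491 and 1126 bp at 60%, 1226 and 1786 bp at 69%, and 1625 and 2304 bp at 78%. The 0% libraries were the highest and the 48% libraries the lowest, below the 8 others (14.1% of all genes had 48% lowest in this way). The log2 difference was -2.47 ± 0.27 (SE) for 48% minus 0% (adjusted p = 0.000696, limma). With only the regions that overlap the gene it was -1.06 (adjusted p = 0.013), and in the first 20000 entries -3.84 (0.0121).

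At Sr-CI, 9 of 19 assessed regions closed and 0 opened between these stages. The regions at 4127015-4127372 and 4128542-4128983 were held by both 0% libraries and no other. Others returned later. Those at 4129029-4129794 and 4131366-4131758 were found in both replicates at 0%, 60%, 69% and 78% and in neither at 48%, and that from 4132854 to 4133540 in both at 0% and 78% only. This last region is the one nearest the 10 kb limit from inside. Just outside the limit, 10995 bp from the gene, a region from 4135148 to 4135375 was held by both 0% libraries and no other.

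NimC1 is a Nimrod-family receptor for phagocytosis of bacteria. The gene (Dmel_CG8942) spans 2L from 13973158 to 13976769 and held 4 regions, all inside it. Covered length was 1181 and 1836 bp at 0%, 308 and 344 bp at 48%, 731 and 704 bp at 60%, 818 and 613 bp at 69%, and 233 and 579 bp at 78%. Both disc libraries lay above every pupal one. The log2 difference for 48% minus 0% was -1.89 ± 0.35 (SE, adjusted p = 0.0053, limma), and without replicate 2 at 0% it was -1.59 (adjusted p = 0.0516). One region held most of this length at 0% and all of it at 48%. It lay from 13974956 to 13976274 and covered 1080 and 1149 bp at 0%, against 308 and 344 bp at 48%, and at 78% replicate 1 did not list it and replicate 2 covered 148 bp. Its neighbour from 13974374 to 13974920 was absent at 48% alone, and both libraries of each other stage listed it.

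Hml, whose regulatory sequence is widely used to label plasmatocytes, spans 3L from 13846054 to 13860001 (Dmel_CG7002). It held 18 regions, 7 of them listed in a single library. Covered length was 2616 and 4046 bp at 0%, 521 and 1552 bp at 48%, 2750 and 1661 bp at 60%, 2071 and 2623 bp at 69%, and 1436 and 2213 bp at 78%. The disc libraries overlapped in range with those of 60% and 69% and stood above both libraries at 48% and both at 78%. The log2 difference for 48% minus 0% was -1.73 ± 0.48 (SE, adjusted p = 0.0271, limma). This call was lost in 7 of the 10 fits with 1 library left out, with values of -1.02 (adjusted p = 0.13) without replicate 1 at 48% and -1.42 (0.18) without replicate 2 at 0%. In the other 5 it was -2.03 (0.0706) without replicate 1 at 0%, and -1.73 (0.05 to 0.0532) without any 1 of the 69% and 78% libraries.

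Inside Hml, the region from 13853343 to 13854309 covered 681 and 917 bp at 0%, none at 48%, and at most 357 bp in any later library. The region over the upper end, from 13859845 to 13860310, which also overlaps CG8745, was listed in all 10 libraries, as was that from 13851527 to 13852886. The one region of Hml that both 0% libraries and no pupal library listed lay from 13849402 to 13849626. None of the gene's regions opened at 48%.

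**Figure D2:**
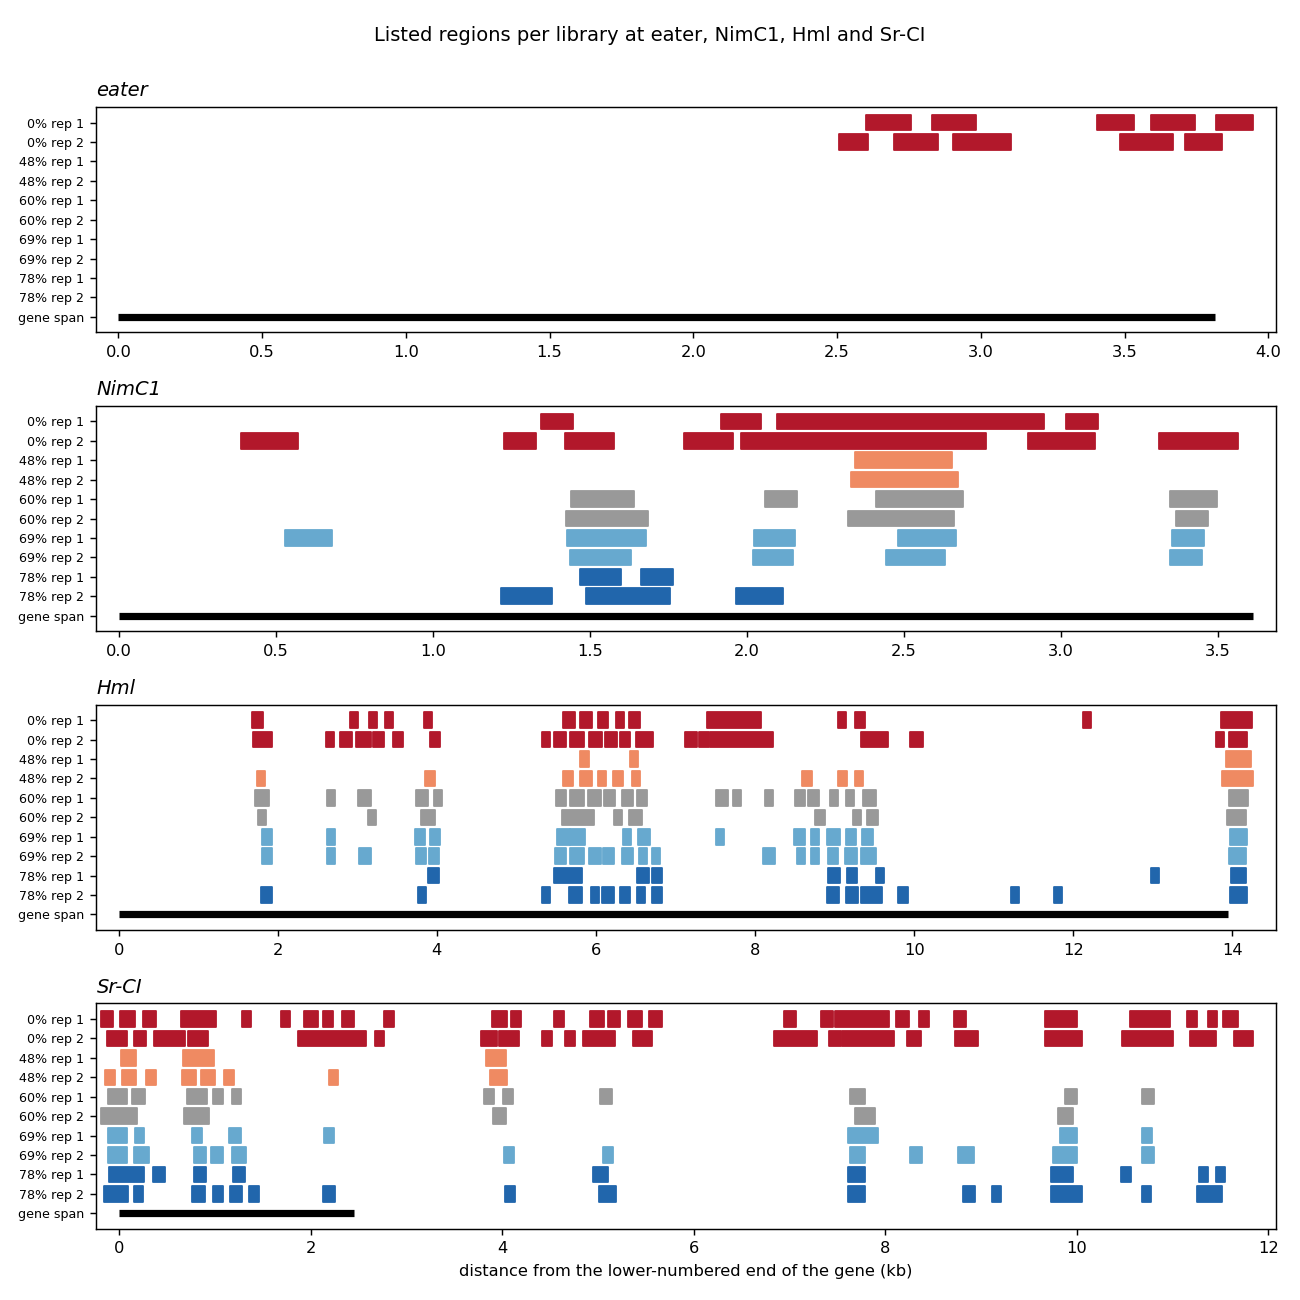
Regions listed by each of the 10 libraries (rows, coloured by stage) at eater, NimC1, Hml and Sr-CI. The horizontal axes give distance in kb from the lower-numbered end of the gene and the black bar is the gene span. Only the 0% rows hold any region at eater, and the largest region of NimC1 is covered furthest in the 0% rows.

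Croquemort belongs to the CD36 family and takes up dying cells. Its gene, crq (Dmel_CG4280), spans 2L from 448254 to 453024 and followed another course. Covered length was 1295 and 1386 bp at 0%, 2114 and 1174 bp at 48%, 2435 and 2660 bp at 60%, 2315 and 2716 bp at 69%, and 2236 and 2405 bp at 78%. All libraries from 60% on lay above both disc libraries, and the 48% libraries fell on either side of them. The region over its upper end, from 452010 to 453617, was listed in all 10 libraries and is shared with shv. A second region of 1528 bp inside the gene, from 448845 to 450372, was listed in all 8 pupal libraries and in neither disc library, and so opened at 48%. There it covered 902 bp in replicate 1 and 101 bp in replicate 2, against 783 to 1333 bp in later libraries. The log2 difference for 48% minus 0% was 0.22 ± 0.23 (SE, adjusted p = 0.502, limma), and without replicate 2 at 48% it was 0.62 (adjusted p = 0.0145).

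Peroxidasin is both a hemocyte marker and a product of other tissues that build basement membrane. Pxn (Dmel_CG12002) spans 3L from 2601455 to 2630064 and held 23 regions, none outside the gene. Covered length was 2625 and 3702 bp at 0%, 1752 and 2474 bp at 48%, 2428 and 2372 bp at 60%, 2191 and 1970 bp at 69%, and 1769 and 2259 bp at 78%. Both disc libraries were above all pupal ones. The log2 difference for 48% minus 0% was -0.56 ± 0.21 (SE, adjusted p = 0.0759, limma). It was -0.29 when scaled (0.162), -0.32 without replicate 2 at 0% (0.388) or replicate 1 at 48% (0.366), and -0.80 without replicate 1 at 0% (0.0546) or replicate 2 at 48% (0.044), which passed. Of its 19 assessed regions 6 closed and 1 opened.

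The opened region of Pxn lay from 2616506 to 2617562. It covered 749 and 1042 bp at 48%, 431 and 454 bp at 60%, 101 bp in 1 library at 69% and nothing at 78%, against nothing at 0%. The region from 2613497 to 2614336 did the reverse, with at most 101 bp in any pupal library, against 640 and 821 bp at 0%. A region over the gene's upper end, from 2629973 to 2630264, was listed in all 6 libraries from 60% on and in none before.

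Among the transcription factor genes, ush had by far the most regions. It (Dmel_CG2762) spans 64341 bp of 2L, from 476220 to 540560, and 66 regions overlapped it, of which 6 also overlapped another gene (cbt, MED15 or lwr). Covered length was 25513 and 26740 bp at 0%, 15667 and 14761 bp at 48%, 16412 and 16574 bp at 60%, 19669 and 20301 bp at 69%, and 14433 and 20723 bp at 78%. The disc libraries were the highest, and those at 78% lay far apart. The log2 difference for 48% minus 0% was -0.78 ± 0.16 (SE, adjusted p = 0.00868, limma), and without replicate 2 at 0% it was -0.74 (adjusted p = 0.0621). Of 46 assessed regions 12 closed and 4 opened, and 18 were listed in all 4 libraries.

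The 12 ush regions that closed were spread along the gene, from 5.79 to 56.08 kb from its lower end. The region from 532297 to 533068 covered 746 and 751 bp at 0% and was listed in no pupal library. The broad neighbours from 529835 to 532221 and from 533451 to 535860 covered 2235 and 2306 bp and 2103 and 1866 bp at 0%. At 48% they covered 706 and 750 bp and 436 and 101 bp. In all, 6 regions of ush were listed by both 0% libraries and no pupal library. At the other side of the gene, a region of 3695 bp from 478300 to 481994, shared with cbt, covered 3061 to 3589 bp in all 10 libraries. The region from 536917 to 537306 was absent at 0% and found in both replicates at 48%, 60% and 69% and in 1 at 78%.

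The lz gene (Dmel_CG1689) spans X from 9284649 to 9303636, held 9 regions and was the member with 48% highest. Covered length was 2046 and 2111 bp at 0%, 2904 and 2693 bp at 48%, 1823 and 2009 bp at 60%, 1743 and 1706 bp at 69%, and 1434 and 1377 bp at 78%. The replicates lay close together at each stage, and both 48% libraries were above the 8 others, as for 6.61% of all genes. The log2 difference was 0.41 ± 0.08 (SE, adjusted p = 0.00628, limma) for 48% minus 0% and -0.94 ± 0.08 (SE, adjusted p = 0.000315) for 78% minus 48%. Its regions differed in course. Those from 9283946 to 9284682, over the lower end, and from 9305361 to 9306446 and 9310188 to 9310645, above the gene, were listed in all 10 libraries. Those at 9295443-9295768 and 9304038-9304347 were held by both 48% libraries and no other. That at 9297486-9297752 was found in both replicates at 48% and 60%, in 1 at 69% and in none at 0% or 78%, and that from 9294651 to 9294963 in both at 0% only.

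For srp no difference in covered length passed the threshold. The gene (Dmel_CG3992) spans 3R from 15986152 to 16004085 and held 17 regions. Covered length was 2249 and 3109 bp at 0%, 2345 and 2871 bp at 48%, 2484 and 2861 bp at 60%, 2108 and 2212 bp at 69%, and 1814 and 2463 bp at 78%. Every pupal stage overlapped the range of the disc except 69%, just below it. The log2 difference for 48% minus 0% was -0.03 ± 0.20 (SE, adjusted p = 0.961, limma), and it was 0.24 with lengths scaled to the listed sequence (adjusted p = 0.207).

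Single regions of srp came and went between stages. Those from 15988138 to 15988437 and from 16002418 to 16003068 opened at 48%, and the second covered 435 and 468 bp there. The region at 15997624-15998022 was found in both replicates of every stage but 48%, where it was missing from both. That at 15994353-15994792 was found in both replicates at 0% and 48% and in none later. A further 4 regions, among them that over the upper end from 16004051 to 16004396, were listed in all 10 libraries.

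**Figure D3:**
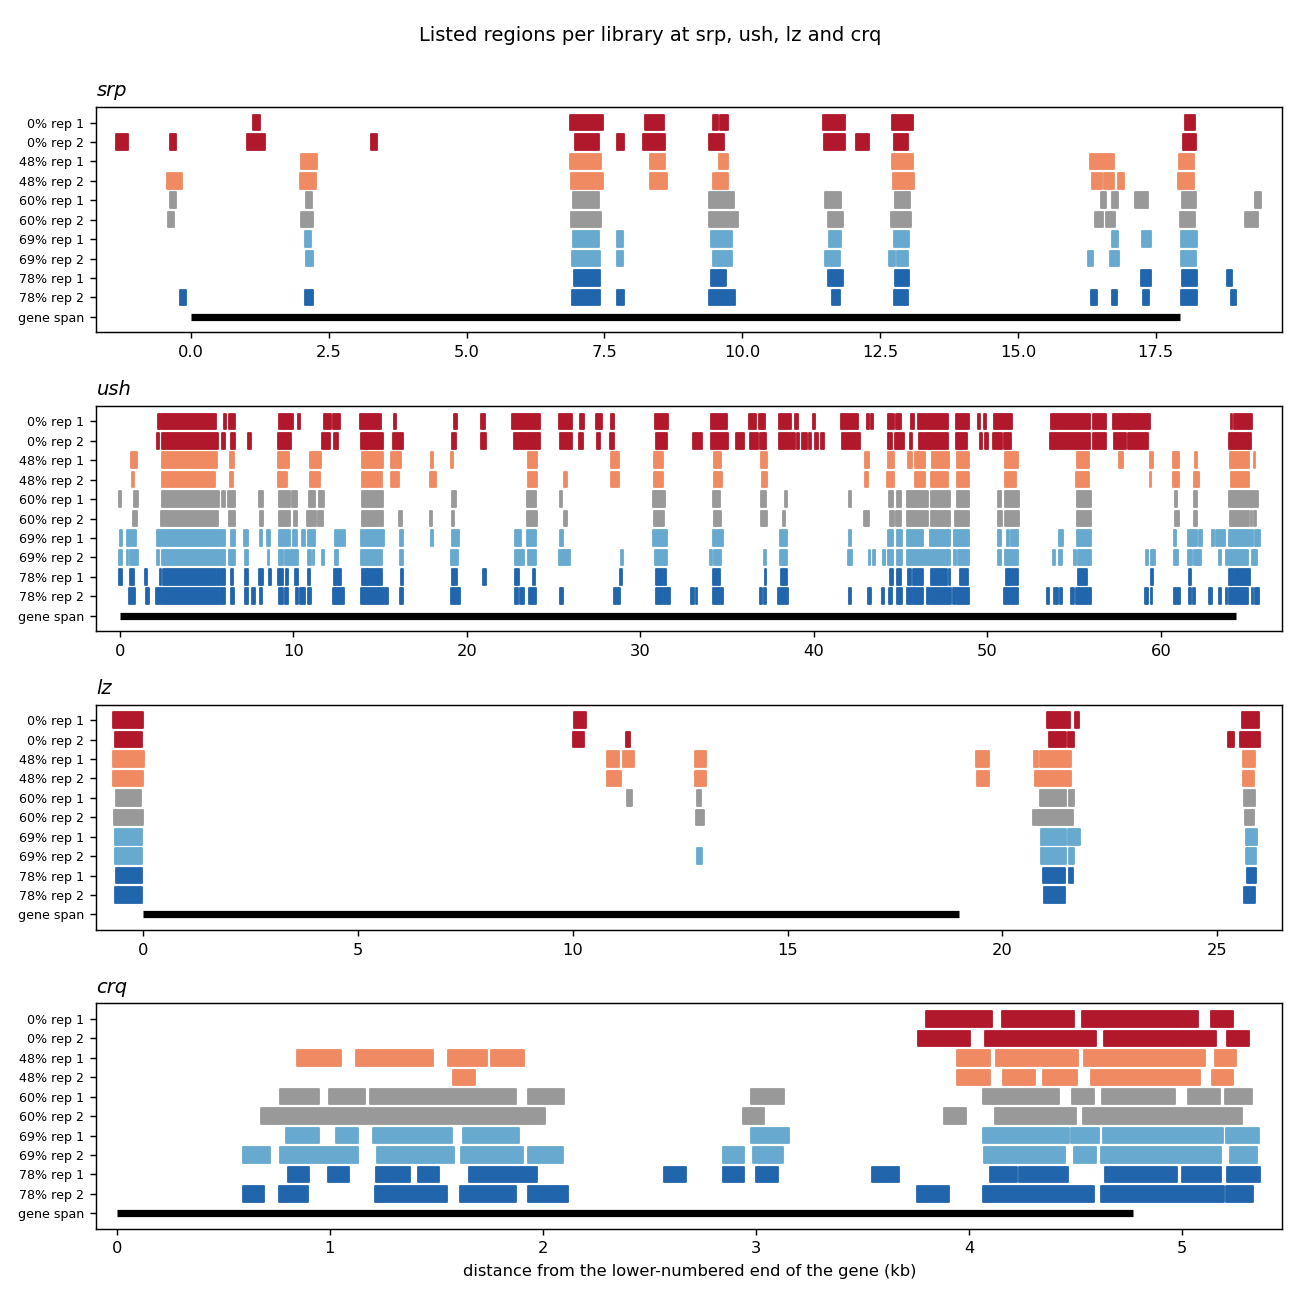
Regions listed by each of the 10 libraries (rows, coloured by stage) at srp, ush, lz and crq, with distance in kb from the lower-numbered end of the gene and the gene span in black. Several regions of ush are in the 0% rows only, the 48% rows hold regions of lz found in no other row, and the 0% rows lack the lower region of crq.

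The comparison of 78% with 48% asks what differed between the late and the mid-pupal wing. Covered length was higher at 78% for Sr-CI alone, 1 of 9 members (21.0% of all genes), with a log2 difference of 1.11 ± 0.27 (SE, adjusted p = 0.0193, limma). Without replicate 2 at 78% that value was 0.87 (adjusted p = 0.115), without replicate 1 at 48% it was 0.84 (0.111), and with only the regions that overlap the gene it was 0.34 (0.316). It was lower for lz alone, 1 of 9 (14.6% of all genes). The members' median log2 difference was 0.16 and that of all genes 0.14. eater was listed at neither stage and has no value. The values of the other 6, 78% minus 48%, were 0.90 ± 0.48 for Hml, 0.53 ± 0.23 for crq, 0.18 ± 0.16 for ush, 0.16 ± 0.35 for NimC1, -0.06 ± 0.21 for Pxn and -0.28 ± 0.20 for srp (SE), with adjusted p from 0.119 to 0.877. Leaving out replicate 2 at 48% gave 2 members higher, with Hml added (1.60, adjusted p = 0.0384), while Hml stood at 0.19 (0.788) without replicate 1 at 48%. Leaving out replicate 1 at 78% gave 2, with ush added, and leaving out replicate 2 at 78% gave 0. Leaving out replicate 1 at 48% gave 1, but this was crq (0.93, adjusted p = 0.00699) in place of Sr-CI.

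By regions, 21 of 109 opened at 78% (19.3%, against 16.5% of all regions) and 6 closed (5.5%, against 5.26%). Both shares are near the background. The opened ones included 8 in ush, 5 around Sr-CI and 4 in Pxn, and the closed ones 3 in lz. The 48% lists are the shorter ones, with 41485 and 51422 regions, against 68580 and 80702 at 78%. Header fragment length also separated these stages, with 162 and 206 bp at 48% and 52 bp in both 78% libraries. Between neighbouring stages the members' counts were 15 opened and 5 closed of 82 at 60% against 48% (11.3% and 4.07% of all regions), 7 and 2 of 98 at 69% against 60% (7.62% and 2.66%), and 5 and 5 of 117 at 78% against 69% (3.17% and 4.35%).

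**Figure D4:**
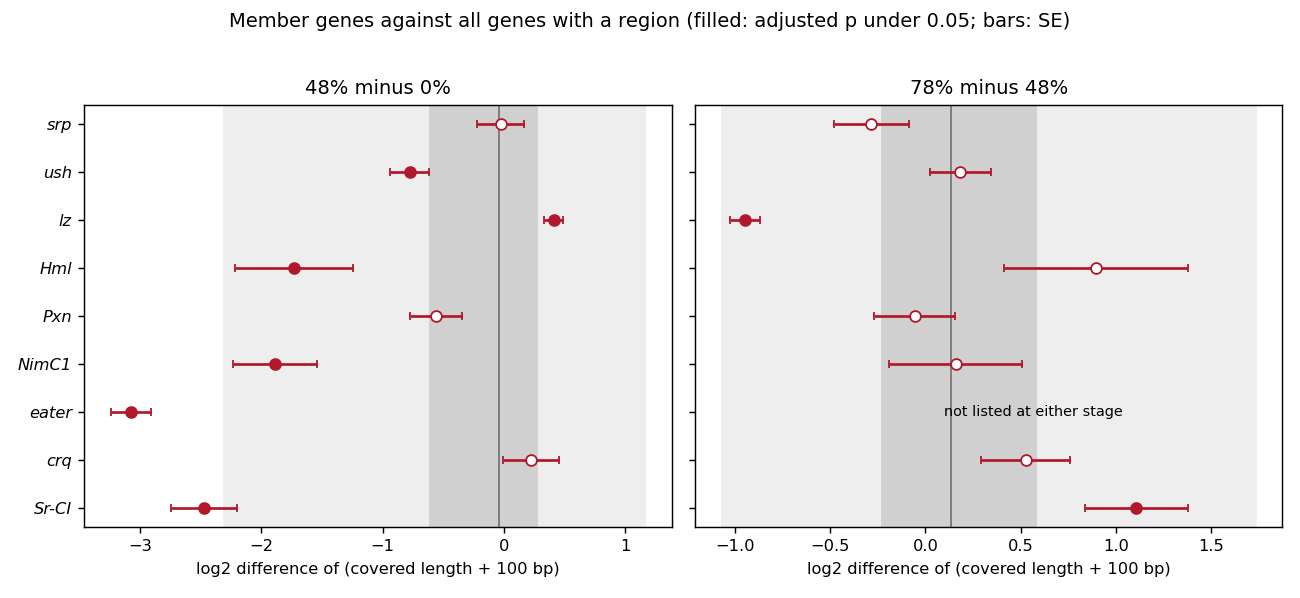
Log2 difference in covered length plus 100 bp (horizontal axes) for each member, 48% minus 0% and 78% minus 48%, with SE. Filled points passed an adjusted p of 0.05. The line is the median of all 13030 genes and the bands hold their central 25th to 75th and 5th to 95th percentiles, which for 48% minus 0% run from -0.61 to 0.27 and from -2.30 to 1.16. eater is set by the added 100 bp, since it was not listed at 48%.

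Of the 10 member regions that held an end of their gene, 6 were listed in all 10 libraries, namely those at srp, ush, lz, Hml, crq and Sr-CI. Among all 10049 regions of the union that hold a gene end the share was 66.2%. Of the 130 member regions inside a gene, 20 were listed in all 10 libraries. Over all members 28 of 164 regions (17.1%) were, against 16.7% of the union, and 43 (26.2%) were listed in 1 library, against 29.8%. NimC1 had no region over either end. The stage at which most member regions were found in both replicates was 0%, with 78 of 164 (47.6%, against 36.9% of the union). The counts were 48 (29.3%, against 28.1%) at 48%, 62 (37.8%, against 34.8%) at 60%, 69 (42.1%, against 41.5%) at 69% and 59 (36.0%, against 37.4%) at 78%.

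A further list of 37 hemocyte genes held lineage factors, growth factor signalling, uptake receptors and matrix proteins. It also held products of crystal cells and of lamellocytes, a further hemocyte type, and other surface and secreted proteins. Sr-CIII of this list shares a region with the member Sr-CI, so the lists are not fully separate. At 48% against 0%, 21 of 37 were lower and 1 higher, with a median log2 difference of -0.70 (all genes 22.9% lower and 15.4% higher, median -0.04). At 78% against 48%, 16 were higher and 4 lower, with a median of 0.52 (all genes 21.0% higher and 14.6% lower, median 0.14). For 9 of the 37 both disc libraries lay above all pupal ones, as for 18.8% of all genes. In 10 of the 37 at least 1 library listed nothing, among them PPO1, a prophenoloxidase gene of crystal cells, and the receptor gene NimC4. Of regions, 69 of 325 closed (21.2%, against 19.8% of all regions) and 25 opened (7.69%, against 8.84%) at 48%. At 78%, 64 of 384 opened (16.7%, against 16.5%) and 22 closed (5.73%, against 5.26%). These 4 shares are near the background.

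The genes of that list with most opened or closed regions were Pvf2 and Pvf3, ligands of the PDGF- and VEGF-related receptor that guides and sustains hemocytes, the Notch receptor gene N, the immune receptor and neuronal adhesion gene Dscam1 and cher, the filamin gene. Pvf2 covered 2302 and 2320 bp at 48%, against 4887 and 4967 bp at 0%, a log2 difference of -1.06 ± 0.14 (SE, adjusted p = 0.00149, limma), and closed at 10 of 18 regions. Pvf3 closed at 11 and opened at 7 of 59 (log2 difference -0.47 ± 0.20 SE, adjusted p = 0.105, limma). cher opened at 4 and closed at 1 of 12, but its covered length was lower at 48% (-0.56 ± 0.15 SE, adjusted p = 0.0253, limma). At 78% against 48%, Dscam1 opened at 8 of 57 regions and N closed at 5 of 15, with log2 differences of 0.80 ± 0.14 and -1.11 ± 0.07 (SE, adjusted p = 0.00493 and 0.000115, limma).

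Markers of other tissues were measured in the same libraries. All 7 wing epithelium genes (nub, vg, sd, ap, rn, salm and bi) were listed in all 10 libraries. At 48% against 0% 1 was lower and 0 higher (22.9% and 15.4% of all genes), with a median log2 difference of 0.03. Their summed covered length was 63.4 to 67.9 kb at 0%, 58.8 to 62.0 kb at 48% and 40.6 to 49.8 kb at 78%. At 78% against 48%, 3 were lower and 1 higher (14.6% and 21.0% of all genes). At 48% against 0%, bi closed at 13 and opened at 3 of 41 regions. For nub, 3 closed and 6 opened of 33, and for rn 6 closed and 6 opened of 33. Over all regions 19.8% closed and 8.84% opened. Of 6 muscle genes 4 were lower and 1 higher, with a median of -1.24. Their sums were 18.5 to 23.9 kb at 48%, against 64.5 to 74.0 kb at 0%, where sls alone covered 36281 and 40595 bp. Mhc, the muscle myosin gene, covered 1795 and 1979 bp at 48%, against 7452 and 9489 bp at 0%. It closed at 12 of 26 regions and bt at 26 of 45. Act88F opened at 1 and closed at 1 of 3. The gene up went the other way, from 0 bp in both 0% libraries to 236 and 230 bp, and its 1 assessed region opened. Of the fat body genes, Lsp1alpha had no region and 2 of the 3 others were lower, with sums of 1.66 to 1.91 kb at 48%, against 4.18 to 5.18 kb at 0%. apolpp, the lipophorin gene, closed at 10 of 20 regions and Fbp1 at 1 of 3. Lsp2 had a log2 difference of 0.66 ± 0.68 (SE, adjusted p = 0.499, limma).

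Neuron and sensory organ genes had 1 lower and 1 higher of 6, with a median of -0.29, and trachea genes 2 lower and 1 higher of 4, with a median of -0.29. Summed over the 9 hemocyte genes, covered length was 42.9 to 49.4 kb at 0% and 26.3 to 26.9 kb at 48%. It was 30.0 to 30.6 kb at 60%, 32.1 to 33.9 kb at 69% and 24.98 to 34.3 kb at 78%. Most of this sum is ush, with 25513 and 26740 bp at 0% and 15667 and 14761 bp at 48%. The muscle and fat body values were lower at 48% than at 0%, as were those of most receptors, and their part in the hemocyte result was not tested.

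**Figure D5:**
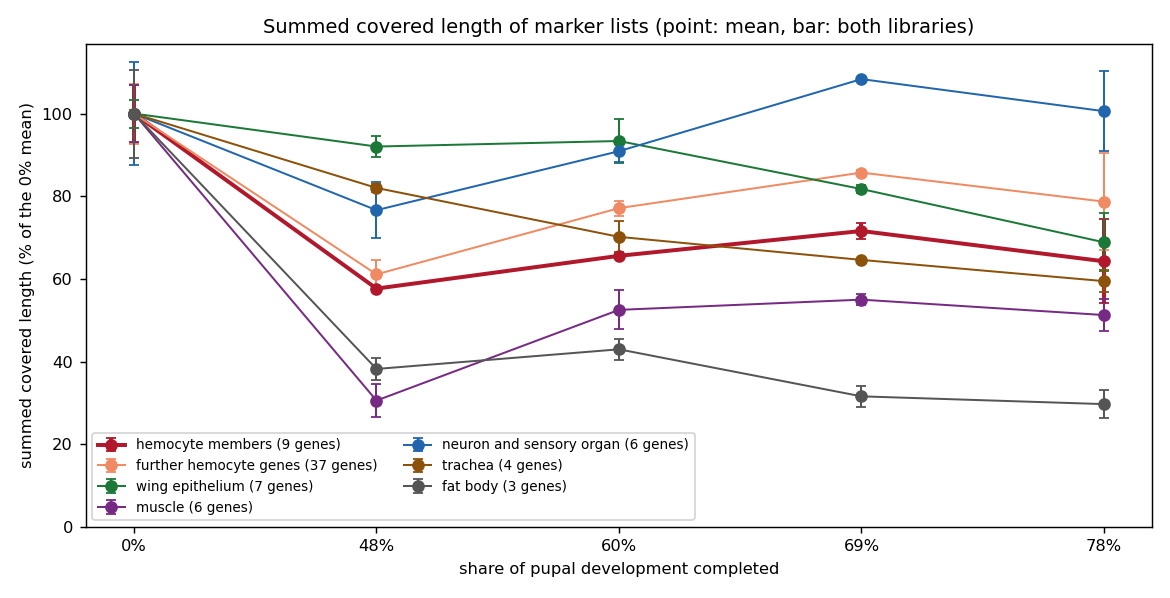
Summed covered length of each marker list at the 5 stages, in percent of its mean at 0%. Points are means of 2 libraries and bars span both. Sums weight genes with long covered length most, such as ush among the hemocyte genes and sls among the muscle genes. Every other list stands at a lower percent at 48% than the wing epithelium list.

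The 3 genes whose covered length over the 10 libraries was most like the mean standardised course of the 9 members were CG43291, CG33308 and CG32237, with Pearson's r of 0.986, 0.985 and 0.984 among 8509 genes with at least 3 regions. The members did not share 1 course. crq had a Pearson's r of -0.67 to -0.22 with each other member, and lz of -0.51 to 0.44. The values compared come from the same 10 libraries, which differ in depth and list length, and are a description only.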

How the data were processed

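The authors deposited 1 list of open regions per library and 1 per pooled pair of replicates. Per the submitters' processing notes, Bowtie2, Picard, SAMtools, MACS2 and HOMER were used, with build dm6 and no versions. Per the file headers, HOMER findPeaks joined enriched windows of 100 bp at a Poisson p-value threshold of 0.001, for a genome of 120 Mb. No input control and no shift for the transposase cut are named there, so region edges are approximate. The deposited score is 1 for every region and was not used, and the columns used are coordinates. The first 20000 entries of each list are wider and served as a stricter list.

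Overlapping entries of the 10 lists were merged. A library listed a region if it shared at least 1 base. Genes were the 13962 protein-coding spans of the RefSeq table of Release 6 plus ISO1 MT, without strand, exons or sequence. Regions overlapping several genes counted for each. Differences are log2(covered length + 100 bp), tested with limma 3.58.1 (R 4.3.3, variance trend) over all 5 stages, with Benjamini-Hochberg adjustment over 13030 genes. They understate changes at short lengths. The fit and its calls were tested on simulated data with normal noise. These held neither the caller's threshold nor depth differences, so the simulation does not cover genes that a whole stage left unlisted. The labels do not say how animals were divided, so p-values measure the spread between these libraries. Replicate numbers are shared across stages, but no label says that they mark pairs. The named genes are the 9 members, the 3 most alike and genes taken by a rule. The rule took the 2 genes of each further list that had most regions opened or most closed. Outside the rule, NimC4, PPO1 and single regions were chosen after their values were seen. Not every gene that the rule took is reported with its counts. Those of the neuron and sensory organ list and of the trachea list are left out. For the late against the mid-pupal wing, counts of genes taken by the rule are given for Dscam1 and N alone. Members and lists were chosen with earlier results of these data known. Alternatives were scaling, pseudocount, a gene filter, span overlap only, the first 20000 entries, 50% coverage, pooled lists, a replicate block and each library left out.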

Additional observations from a re-analysis of the deposited data

How the results depend on the processing

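Leaving out 1 library at a time, 3 to 6 members passed over the 5 stages. At 48% against 0%, 2 to 6 were lower and 1 to 2 higher, and at 78% against 48%, 0 to 2 were higher and 1 was lower. With single replicates, 13 to 14 member regions opened and 51 to 64 closed at 48% against 0%, and 33 to 42 opened and 8 to 15 closed at 78% against 48%. The fit with a replicate block gave 6 members lower at 48%, with Pxn added (adjusted p = 0.0489, limma), and 5 over the 5 stages, without crq. Deviations of replicate 1 correlated at -0.31 to 0.25 over 10 pairs of stages (median 0.15), and at 4 of 5 stages the number goes with the folder. Not every pair was above 0.1 and no label gives a pairing, so pairing was not established. In the first 20000 entries, 0 members were higher and 2 lower at 48%, and 0 were higher at 78%. There 4 regions opened and 11 closed at 48% against 0%, and 5 opened at 78% against 48%. The pooled lists gave 65 closed at 48% and 49 opened at 78%. Coverage of at least 50% gave 12 opened and 10 closed at 78%, and span overlap alone 0 members higher at 78%. Among these alternatives, the share of all regions was taken only for replicate 1 alone at 48% against 0% (20.6% opened, 37.3% closed). The other region counts therefore cannot be set against the background. Directions turned for uncalled members. For 48% minus 0% these were srp (0.24 when scaled; -0.25 to 0.20 over left-out libraries), Pxn (2.37 in the first 20000 entries) and crq (-0.18 to 0.62 over left-out libraries). For 78% minus 48%, the first 20000 entries gave 0.088 for srp, -0.25 for ush, -0.032 for Hml and -1.08 for NimC1, and left-out libraries -0.075 to 0.44 for ush, -0.35 to 0.67 for NimC1 and -0.29 to 0.18 for Pxn. The causes were not tested. A pseudocount of 500 bp changed no member's call. Requiring at least 3 regions left eater out and changed no other member's call. The lists hold no signal, so depth cannot be set against single regions.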
